A study of Bos taurus with 9 samples.

Results

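Mitochondrial ribosomal protein genes encode the protein part of the ribosome that works inside mitochondria. They were taken as every gene whose bovine NCBI symbol starts with MRPL or MRPS and a number, which gave 78 of 17852 genes in the table, 49 named for the large subunit (MRPL) and 29 for the small subunit (MRPS). All 78 passed the filter on low counts and are among the 13190 genes tested. RNA had been sequenced from cow oocytes at the second meiotic metaphase in 3 groups of 3 libraries: oocytes given microplastics together with taurine, oocytes given microplastics alone, and control oocytes. Libraries are numbered within their group as their labels number them, and "taurine" before a library or group means microplastics together with taurine. Taurine is a sulfur-containing compound that cells accumulate, and mitochondria use it to modify some of their transfer RNAs. The sources used here give neither the type and dose of the particles nor the dose of taurine. They do not say that the libraries of 1 group came from different animals or cultures, so a p-value here measures the spread between libraries, and that spread may be technical.

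The mitoribosome makes the few proteins that the mitochondrial genome encodes, all of them core subunits of the respiratory chain and of ATP synthase. Its RNAs are made in the mitochondrion, while each of its proteins is encoded in the nucleus, translated in the cytosol and imported. Part of these proteins have counterparts in bacterial ribosomes, and the rest arose in the mitochondrial lineage and coat the outside of the particle. The small subunit decodes the messenger RNA, and the large subunit joins amino acids and passes the new chain through an exit tunnel to the inner membrane. A mature oocyte holds a very large number of mitochondria and transcribes little, so it draws on stored messenger RNA.

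The libraries held 21.17 to 22.74 M estimated reads. Scaling factors by the TMM method were 0.841 to 0.958 with microplastics and taurine, 1.21 to 1.25 with microplastics and 0.836 to 0.973 in control, so the choice of scaling bears on every comparison with the microplastics group. Oocyte marker genes summed to 25601 to 38104 CPM with microplastics and taurine, 17696 to 21303 CPM with microplastics and 30658 to 41639 CPM in control. They did not all change alike. Of the 13 oocyte markers, 5 were called lower with microplastics by edgeR and 2 higher, ZAR1 (log2 1.00) and NLRP5 (1.01). With taurine against microplastics 3 were called higher and 2 lower. Of 10 tested cumulus and granulosa markers, 0 were called higher and 4 lower with microplastics by edgeR. Over all tested genes 9.67% were called higher and 14.7% lower with microplastics. INHA, VCAN and SERPINE2 were called higher with taurine against microplastics, where 10.1% of all tested genes were called higher and 4.13% lower. INHA had 0, 2 and 0 reads with microplastics, all under 3 reads, and 15, 8 and 168 reads with microplastics and taurine. Summed levels of the 13 cumulus and granulosa markers in the table were 499 to 549 CPM with microplastics and taurine. They were 407 to 509 CPM with microplastics and 486 to 591 CPM in control, with FSHR under 3 reads in each library. STAR alone averaged 281 CPM with microplastics and taurine, 308 CPM with microplastics and 282 CPM in control, so it made up much of the sum. TNFAIP6 was at 66.1 CPM in control 2 and 33.3 CPM in taurine 3, and at most 1.52 CPM in every other library. The erythroid markers HBA and HBA1 summed to 17.3 to 23.9 CPM with microplastics and taurine, 10.6 to 17.7 CPM with microplastics and 31.0 to 67.2 CPM in control, with both called lower with microplastics and 1 called higher with taurine against microplastics. Leukocyte markers summed to at most 8.72 CPM in any library. By correlation over all tested genes, taurine library 3 was closest to control 2 (0.977), and control 3 was closer to taurine libraries 1 and 2 (0.976 with each) than to control 1 and 2 (0.962 and 0.964). These libraries thus lie nearer to the other group than their labels say; whether the 2 labels were exchanged was not tested, and the labels were kept, so values of both groups carry this doubt. Results are therefore also given without this pair. The part of these differences in the results below was not tested.

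In control oocytes the level per transcript length spanned a 1980-fold range over the 78 genes. MRPS16, a small-subunit protein conserved from bacteria, was highest, at 2367, 2517 and 2664 TPM with microplastics and taurine, 2652, 2301 and 2056 TPM with microplastics and 3361, 2723 and 2687 TPM in control. MRPL20, which binds ribosomal RNA early in assembly of the bacterial large subunit, came next, at 1779.8, 1954 and 2295 TPM with microplastics and taurine, 3071, 2639 and 2204 TPM with microplastics and 3427, 2037 and 2034 TPM in control. These 2 transcripts stood far above the rest, and their control libraries overlapped each other. MRPL32 followed with a mean of 579 ± 69.6 TPM in control, MRPL39 with 563 ± 17.9 TPM and MRPS14 with 529 ± 419 TPM (SD, n = 3). The spread of MRPS14 came from control 1 at 1013 TPM, against 287.1 and 287.0 TPM in control 2 and control 3. The 5 highest genes held 54.8% of the TPM of all 78.

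At the low end stood MRPL24 at 3.32 ± 0.365 TPM, MRPL28 at 2.35 ± 1.42 TPM and MRPL12 at 1.48 ± 1.19 TPM in control (SD, n = 3). MRPL12 builds the flexible stalk that recruits translation factors to the large subunit, and in the ribosome it is present in several copies. Its transcript, the lowest of the 78, was read at 0.76, 1.64 and 0.711 CPM with microplastics and taurine, 1.36, 1.30 and 1.10 CPM with microplastics and 2.88, 0.74 and 0.667 CPM in control, and the groups overlapped. In all, 23 genes exceeded 100 TPM and 14 were under 10 TPM in control. The median was 23.0 TPM for large-subunit genes and 33.7 TPM for small-subunit genes. Along the order of mean levels, the control libraries of 2 neighbours did not overlap in 4 of 77 pairs, so most neighbours did not differ beyond their spread.

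**Figure D1:**
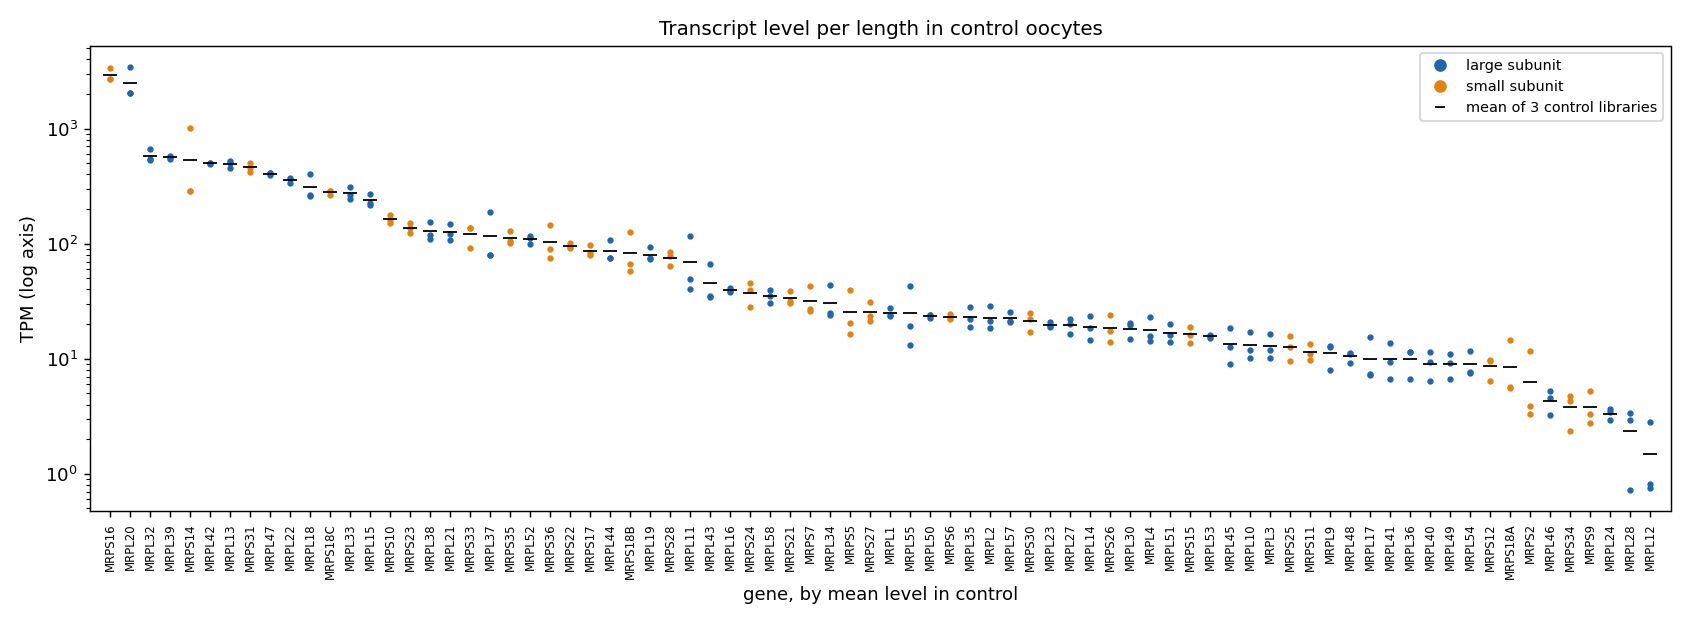
Transcript level per length (TPM, log axis) of each of the 78 genes in the 3 control libraries, ordered by mean, with points for libraries, a dash for the mean and colour for the subunit by name. MRPS16 and MRPL20 stand above all others and MRPL12 is lowest, with a 1980-fold ratio between the highest and the lowest mean.

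With microplastics, 21 of the 78 genes fell and 4 rose against control by edgeR's quasi-likelihood test (adjusted p under 0.05 over 13190 genes), where 14.7% of all tested genes fell and 9.67% rose. Thus 26.9% of these genes were called lower and 5.13% higher; calls of either direction made up 24.3% of all tested genes. Their median log2 fold change was -0.28, beside 0.04 for all tested genes. In RNA of whole samples, less RNA per oocyte and a changed share of other cells, whose markers are given above, cannot be told apart. The 3 microplastics libraries lay below all 3 control libraries for 30 genes and above them for 11, against 22.5% and 22.4% of all tested genes.

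The largest fall was that of MRPL33, a short conserved protein of the large subunit. It was read at 60.1, 66.1 and 49.8 CPM with microplastics and taurine, 14.97, 8.22 and 11.1 CPM with microplastics and 63.2, 77.7 and 55.5 CPM in control. The microplastics libraries lay below all 6 others, and the log2 fold change against control was -2.52 ± 0.24 (SE; adjusted p = 5.06e-05), a 5.72-fold lower level. MRPL22, whose protein lines the exit tunnel, was read at 189, 203 and 204 CPM with microplastics and taurine, 45.4, 37.6 and 37.1 CPM with microplastics and 209, 202 and 154 CPM in control. Here too the microplastics libraries stood below all others, 4.71-fold lower than control (log2 -2.24 ± 0.18, adjusted p = 2.18e-05).

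MRPS31, a protein of the small subunit with no bacterial counterpart, was at 364, 485 and 531 CPM with microplastics and taurine, 98.3, 120.5 and 157 CPM with microplastics and 547, 577 and 405 CPM in control. That is a log2 change of -2.02 ± 0.22 with microplastics against control (adjusted p = 0.000127), with no overlap. MRPL39, a mitochondria-specific protein related in sequence to threonyl-tRNA synthetase, was at 379, 420.1 and 537 CPM with microplastics and taurine, 139, 129 and 127 CPM with microplastics and 525, 526 and 447 CPM in control. Its 3 microplastics libraries were nearly equal and below all 6 others (log2 -1.93 ± 0.17, adjusted p = 3.02e-05). For MRPL42, another mitochondria-specific protein of the large subunit, the libraries held 236, 236 and 324 CPM with microplastics and taurine, 85.3, 83.2 and 94.2 CPM with microplastics and 304, 301 and 250.2 CPM in control. The microplastics libraries again lay below all others (log2 -1.70 ± 0.18, adjusted p = 8.27e-05).

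MRPL50, also specific to mitochondria, was a low transcript, at 7.22, 10.1 and 10.6 CPM with microplastics and taurine, 4.30, 3.51 and 3.29 CPM with microplastics and 15.1, 15.5 and 12.8 CPM in control. Its log2 fold change with microplastics was -1.96 ± 0.25 (adjusted p = 0.000268), and its taurine libraries lay between the other groups without overlap. MRPS22, a small-subunit protein whose gene has been linked in humans to ovarian insufficiency and to mitochondrial disease, was at 65.8, 92.5 and 125 CPM with microplastics and taurine, 24.1, 25.3 and 42.1 CPM with microplastics and 92.9, 98.1 and 75.9 CPM in control. Its microplastics libraries were below all others (log2 -1.54 ± 0.27, adjusted p = 0.00207).

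MRPS14, a conserved protein of the small-subunit head, differed from these in its spread. It was read at 117, 131 and 127 CPM with microplastics and taurine, 85.8, 81.0 and 50.4 CPM with microplastics and 478, 130.5 and 108 CPM in control. The microplastics libraries lay below all others, and control 1, at 478 CPM, stood far above them. Its log2 fold change was -1.72 ± 0.47 (adjusted p = 0.023). This call was lost without control 1 (-0.72), without microplastics 1 (-1.84), 2 (-1.79) or 3 (-1.50), with library size alone as the scale (-1.20), with the length trend removed (-1.16) and with no filter on low counts (-1.72).

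**Figure D2:**
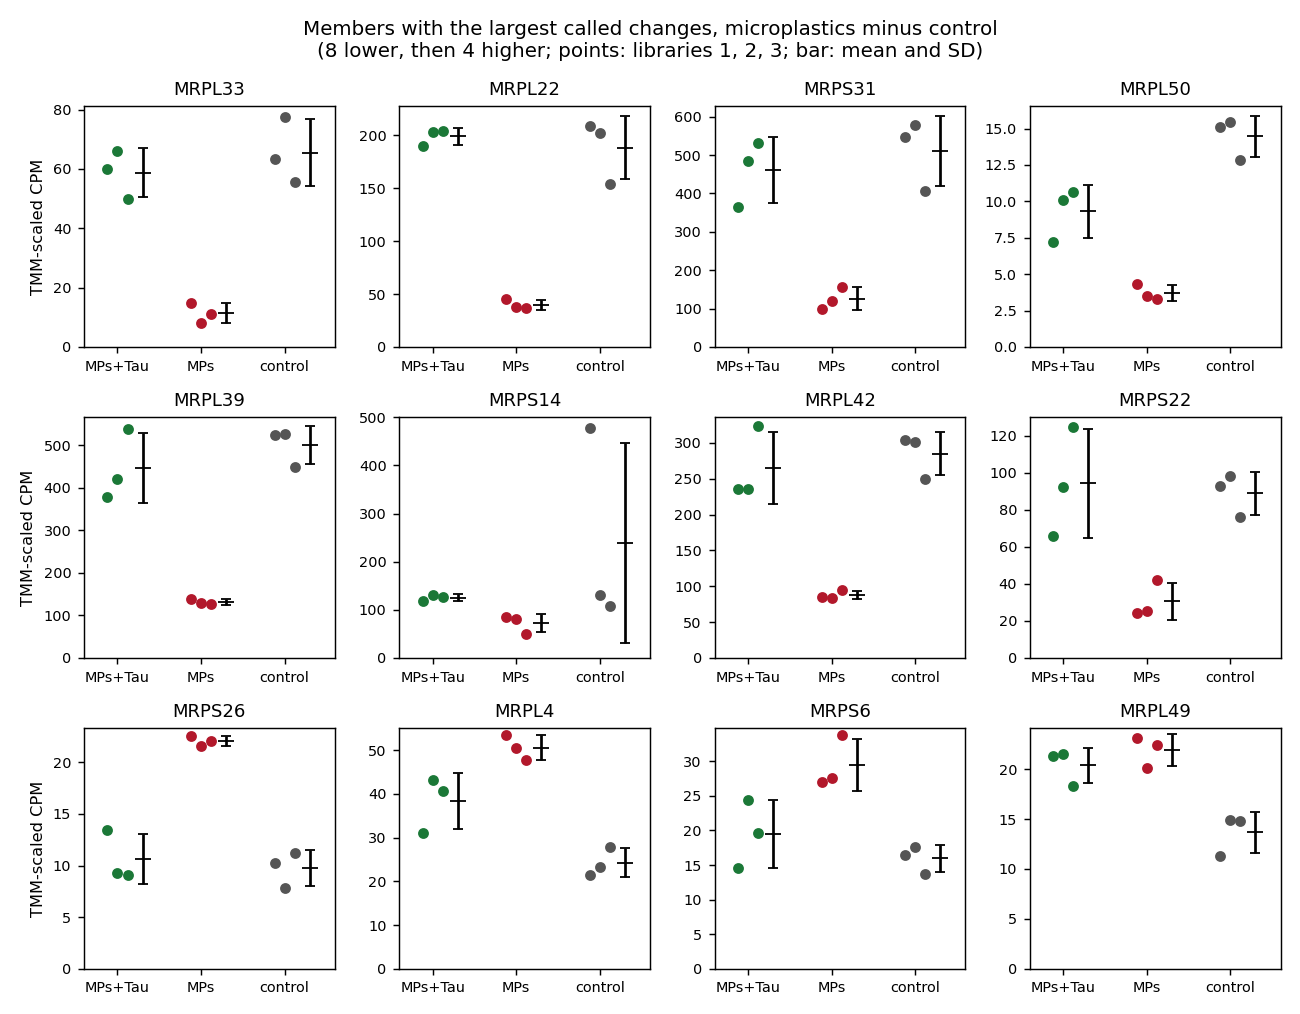
TMM-scaled CPM in each library for the 8 genes with the largest called falls and, in the bottom row, the 4 with called rises with microplastics against control, with points for libraries and bars for mean and SD (n = 3), on axes that start at 0. In the upper 8 panels the microplastics points lie below both other groups, with control 1 far above the rest for MRPS14, and in the bottom row they lie above control.

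The other 13 falls were smaller, with log2 fold changes of -1.18 to -0.66. They include MRPL47, which sits at the mouth of the exit tunnel, at 139.8, 134 and 170.1 CPM with microplastics and 363, 348 and 278 CPM in control (-1.15 ± 0.18), and MRPL32, which in yeast and mouse is cut by an inner-membrane protease before it enters the ribosome, at 153, 142 and 163 CPM with microplastics and 402, 315 and 265 CPM in control (-1.10 ± 0.19). MRPS16, the most abundant of the 78 by TPM in control, fell without overlap (log2 -0.95 ± 0.19, adjusted p = 0.00465 by edgeR). It was at 828, 751 and 619 CPM with microplastics and 1758, 1373 and 1125 CPM in control. MRPL20 did not pass, at 1012, 909 and 700.3 CPM with microplastics and 1893, 1084 and 899 CPM in control (log2 -0.56 ± 0.26, adjusted p = 0.137), and its groups overlapped; without control 3 it was called lower (-0.75), also with taurine 3 left out.

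The 4 rises were smaller than the largest falls. MRPS26, a small-subunit protein without a bacterial counterpart, was at 13.4, 9.31 and 9.13 CPM with microplastics and taurine, 22.6, 21.5 and 22.1 CPM with microplastics and 10.3, 7.82 and 11.2 CPM in control. The microplastics libraries were above all 6 others and 2.26-fold higher than control (log2 1.17 ± 0.23, adjusted p = 0.00421). MRPL4, which reaches into the wall of the exit tunnel, was at 31.0, 43.2 and 40.7 CPM with microplastics and taurine, 53.4, 50.6 and 47.8 CPM with microplastics and 21.6, 23.2 and 28.0 CPM in control. Its 3 groups did not overlap, with control lowest (log2 1.06 ± 0.19 with microplastics, adjusted p = 0.00221).

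MRPS6, a conserved protein of the small subunit, was at 14.6, 24.4 and 19.6 CPM with microplastics and taurine, 27.0, 27.5 and 33.8 CPM with microplastics and 16.5, 17.6 and 13.7 CPM in control. It rose by log2 0.88 ± 0.23 (adjusted p = 0.0163), a call lost without microplastics 3 (0.79). MRPL49, a mitochondria-specific protein, was at 21.3, 21.5 and 18.3 CPM with microplastics and taurine, 23.1, 20.1 and 22.5 CPM with microplastics and 11.3, 14.9 and 14.8 CPM in control. Its libraries in both exposed groups lay above control, and the rise of 0.68 ± 0.20 (adjusted p = 0.0291) was lost without control 1 (0.56), control 2 (0.74), microplastics 1 (0.65), 2 (0.75) or 3 (0.67), and with the replicate block (0.68).

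The counts changed with the scaling and with single libraries. With scaling by library size only, 13 of the 78 fell and 16 rose (6.64% and 30.3% of all genes), and the median was 0.22, where that of all tested genes was 0.52, a difference of -0.30. Over all genes, 82.0% of calls were then higher, against 39.7% with TMM factors. Control 1 was the highest of the 9 libraries for 33 of the 78 genes (42.3%), against 14.9% of all tested genes. Without it 16 fell, 3 rose and the median was -0.07, where 9.26% of all genes fell, 3.87% rose and their median was 0.04. Over the 9 libraries left out in turn falls numbered 16 to 26, and rises 2 without microplastics 3 to 7 without control 3. Falls among all genes then ran from 8.98% (without microplastics 3) to 16.2% (without taurine 3). Rises among all genes ran from 3.87% (without control 1) to 15.4% (without control 3). Without control 3 and taurine 3, 28 fell and 8 rose (19.0% and 19.8% of all genes). In all, 13 of the 21 falls and 2 of the 4 rises were called under each of these: every library left out in turn, scaling by library size only, removal of the length trend, the Wald test of DESeq2, and without control 3 and taurine 3, also with the replicate block. The 13 are MRPL33, MRPL22, MRPS31, MRPL50, MRPL39, MRPL42, MRPS22, MRPL13, MRPL47, MRPL32, MRPS35, MRPS10 and MRPS16, and the 2 rises are MRPS26 and MRPL4. How many calls among all tested genes were kept under all of these was not computed, so these counts have no background beside them.

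Both subunits held falls and rises. Of 49 large-subunit genes 13 fell and 2 rose, with a median of -0.29, and of 29 small-subunit genes 8 fell and 2 rose, with a median of -0.27. Both medians turned positive when libraries were scaled by size alone, to 0.19 for the large and 0.23 for the small subunit, and with the length trend removed they were -0.05 and 0.0038. The difference of the medians, -0.02, was within the spread between libraries and turned to 0.04 without microplastics 3 and to 0.0012 without control 1. Structures of the mammalian mitoribosome place the products of MRPS18A and MRPS30 in the large subunit, and moving both genes there left it at -0.02. MRPS36 carries an MRPS name, but its product is now assigned to the 2-oxoglutarate dehydrogenase complex; its groups overlapped, at 35.3, 28.1 and 16.4 CPM with microplastics and taurine, 18.9, 27.1 and 22.7 CPM with microplastics and 17.9, 20.7 and 27.5 CPM in control.

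By origin, 9 of 30 conserved large-subunit genes fell and 1 rose (median -0.51), as did 4 and 1 of 16 conserved small-subunit genes (median -0.40). Among mitochondria-specific genes, 4 of 21 for the large subunit fell and 1 rose (median -0.12), and 4 of 10 for the small subunit fell and 1 rose (median -0.35). In this order, 30%, 25%, 19% and 40% of the classes fell, beside 14.7% of all tested genes. Rises made up 3.33%, 6.25%, 4.76% and 10%, beside 9.67% of all tested genes. Each of the 4 classes therefore held members called in both directions, with 1 rise in each. MRPS18A and MRPS30 were counted here as large-subunit genes, and MRPS36 was in no class.

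**Figure D3:**
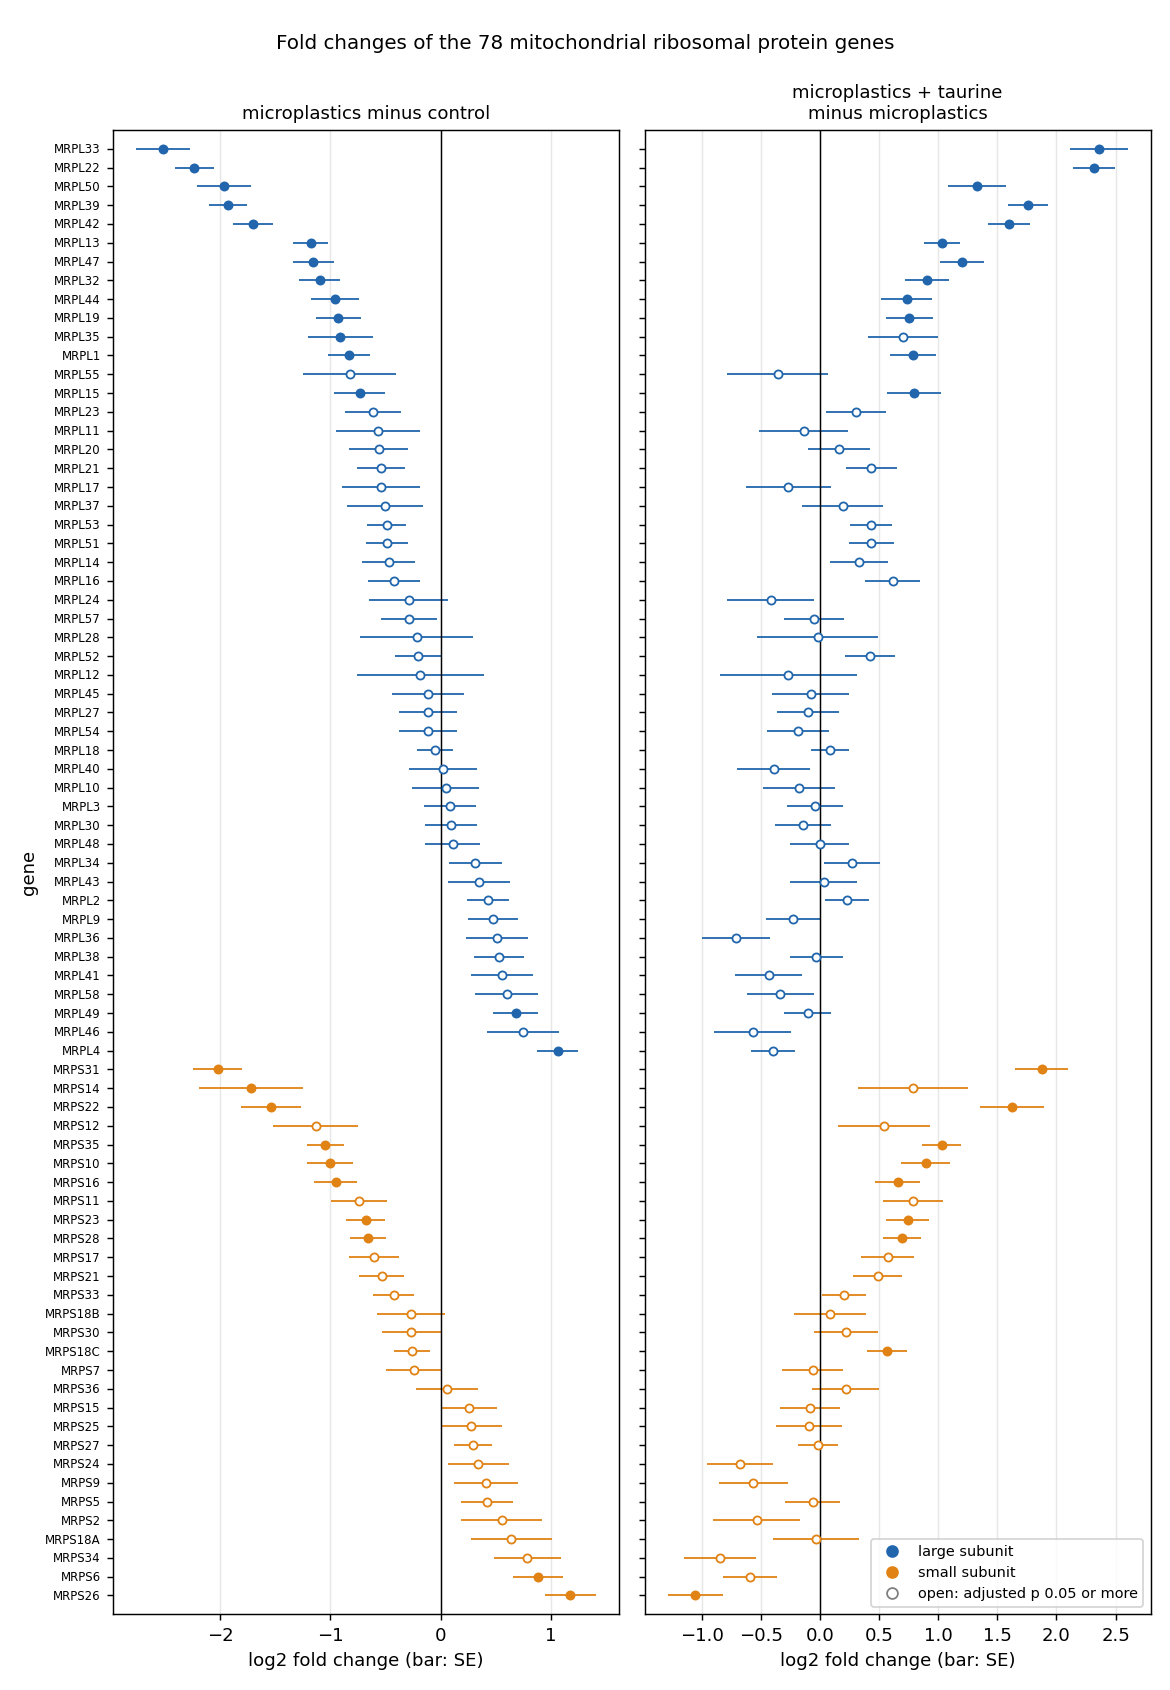
Log2 fold changes of the 78 genes with SE, for microplastics minus control (left) and microplastics and taurine minus microplastics (right), on axes of different range, ordered by the left panel within each subunit by name, filled where the adjusted p was under 0.05. The 2 panels share the microplastics libraries. Filled points on the left number 21 below 0 and 4 above it, on the right 20 above and 1 below.

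Most of the falls lay among the abundant members. When the 78 were split into 3 classes of 26 by mean level over all 9 libraries, 16 of the 26 most abundant fell and 0 rose by edgeR, with a median of -0.94. Other genes of the same range had a median of -0.24, and 31.4% of them fell. In the middle class 3 fell and 3 rose (median -0.18), while of other genes of that range 15.3% fell and 15% rose (median 0.10). In the lowest class 2 fell and 1 rose (median 0.06), while of other genes 7.84% fell and 10.6% rose (median 0.19), so neither class exceeded its background in falls.

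These are short transcripts, with a median length implied by counts and FPKM of 739 nt, against 2037 nt for all tested genes with a length. Split likewise by length, the 26 shortest (212 to 585 nt) had a median change of -0.55, and other genes of that range had -0.50. In the middle class it was -0.24, beside -0.31 for other genes, and in the longest (903 to 2685 nt) -0.25, beside -0.0038. Of the 26 shortest 8 fell and 1 rose, where 31.4% of other genes of that range fell and 1.04% rose. Of the 26 in the middle class 6 fell and 1 rose, beside 23.2% and 3.83% of other genes. Of the 26 longest 7 fell and 2 rose, beside 16.2% and 8.2%. Only the longest class thus exceeded other genes of its length in falls. With a smooth trend on length removed in each library, 19 genes fell and 12 rose, against 14.1% and 8.05% of all genes, and the median was 0.0016, beside 0.0072 for all genes.

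**Figure D4:**
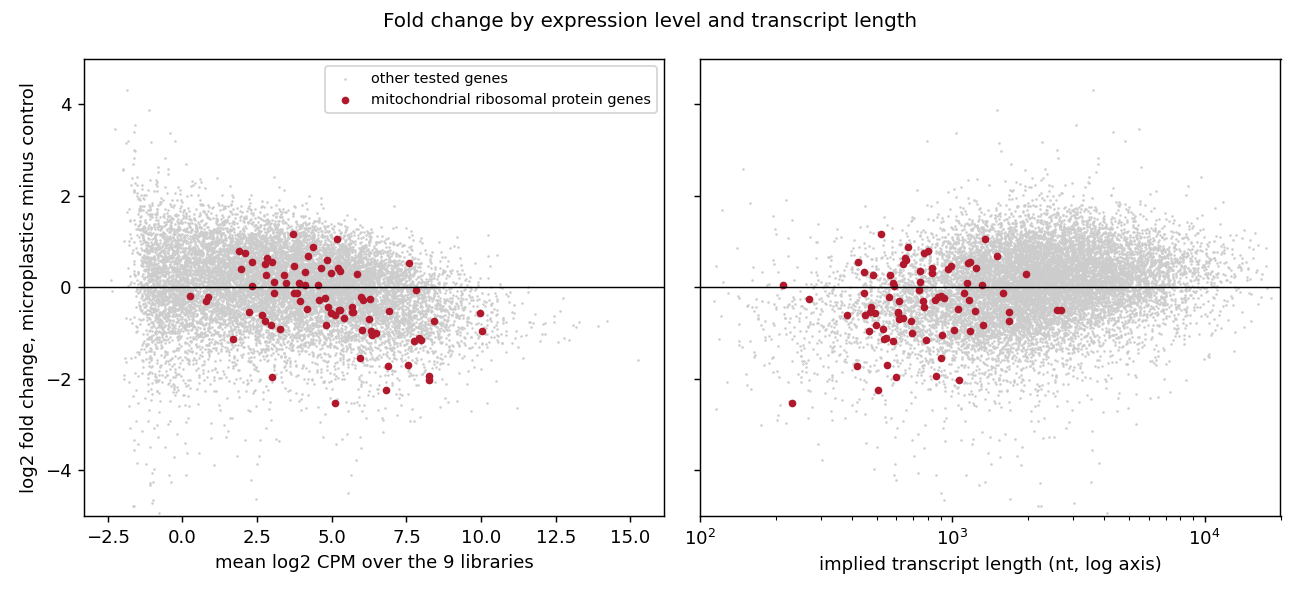
Log2 fold change, microplastics minus control, against mean log2 CPM over the 9 libraries (left) and against transcript length implied by counts and FPKM (right, log axis), for the 78 genes in red and other tested genes in grey; 4 other genes lie beyond the vertical axis. Red points at the right of the level panel lie mostly below 0, and red points sit at shorter lengths than most grey ones.

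A measure within the group of genes needs no scaling between libraries. As a share of the TPM of all 78, MRPL22 made up 3.51%, 3.44% and 3.06% with microplastics and taurine, 1.10%, 0.953% and 1.05% with microplastics and 2.45%, 3.11% and 2.82% in control. MRPS26 made up 0.241%, 0.153% and 0.133% with microplastics and taurine, 0.532%, 0.532% and 0.608% with microplastics and 0.117%, 0.117% and 0.199% in control. So the makeup of the set differed between groups for both genes, without overlap between microplastics and either other group. Of the 21 falls, 10 had a lower share in all 3 microplastics libraries than in any control library and 11 overlapped. All 4 rises had a higher share. These calls and shares come from the same libraries, so the shares give no separate support to the calls. A higher share was also seen in all 3 microplastics libraries for 33 of the 53 genes that were not called. Shares add up to a fixed total in each library, so a lower share of abundant genes raises the shares of the rest. A higher share alone therefore shows no rise in level.

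The summed level of the 78 genes was 12014 ± 612 TPM with microplastics and taurine, 11348 ± 707 TPM with microplastics and 12946 ± 1760 TPM in control (SD, n = 3), with overlap between microplastics and control. On the CPM scale with TMM factors it was 7483 ± 895 CPM with microplastics and taurine, 4810 ± 272 CPM with microplastics and 8287 ± 1676 CPM in control, and there the microplastics libraries lay below all others. Summed large-subunit TPM over summed small-subunit TPM was 1.43 ± 0.05 with microplastics and taurine, 1.46 ± 0.02 with microplastics and 1.37 ± 0.04 in control. The 3 microplastics libraries (1.44 to 1.48) lay above the 3 control libraries (1.33 to 1.40), and taurine libraries overlapped with both. No test was made of this ratio. In control, MRPS16 averaged 2924 TPM of the small-subunit sum of 5462 TPM, and MRPL20 averaged 2499 TPM of the large-subunit sum of 7484 TPM. With microplastics their means were 2336 TPM (MRPS16) and 2638 TPM (MRPL20). Both genes thus weigh heavily in the ratio, and it does not show a shift across the other members of either subunit. The ratio without both was not computed.

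With taurine added to microplastics, 20 of the 78 genes rose and 1 fell against microplastics alone, where 10.1% of all tested genes rose, 4.13% fell and 14.3% were called in either direction. The median was 0.18, beside -0.02 for all tested genes. The taurine libraries lay above all 3 microplastics libraries for 29 genes and below them for 9, against 18.7% and 17.4% of all tested genes. This comparison shares the microplastics libraries with the previous one, so values are given side by side and no overlap between their calls is counted.

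MRPL33 rose 5.13-fold over microplastics alone, to 58.7 ± 8.25 CPM with microplastics and taurine, against 11.4 ± 3.39 CPM with microplastics (SD, n = 3; log2 2.36 ± 0.24, adjusted p = 0.000133). MRPL22 rose 4.97-fold, averaging 199 ± 8.25 CPM with microplastics and taurine and 40.0 ± 4.67 CPM with microplastics (log2 2.31 ± 0.18, adjusted p = 5.05e-05). MRPS31 averaged 460.1 ± 86.2 CPM with microplastics and taurine and 125 ± 29.9 CPM with microplastics (log2 1.88 ± 0.22, adjusted p = 0.000303). In these 3 genes, as the library values above show, every taurine library was over 2 times as high as every microplastics library.

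Next in size were MRPL39 (log2 1.76 ± 0.17), MRPS22 (1.63 ± 0.27), MRPL42 (1.60 ± 0.18) and MRPL50 (1.33 ± 0.24), with adjusted p from 9.36e-05 for MRPL39 to 0.00402 for MRPL50. MRPL47 was at 380.2, 275 and 365 CPM with microplastics and taurine and 139.8, 134 and 170.1 CPM with microplastics, without overlap (log2 1.20 ± 0.18, adjusted p = 0.00138). MRPS26 was the 1 fall, at 13.4, 9.31 and 9.13 CPM with microplastics and taurine and 22.6, 21.5 and 22.1 CPM with microplastics (log2 -1.05 ± 0.23, adjusted p = 0.0107). Of the genes described above as called with microplastics, MRPL4 (-0.40 ± 0.19, adjusted p = 0.176), MRPS6 (-0.59 ± 0.23, adjusted p = 0.106), MRPS14 (0.79 ± 0.46, adjusted p = 0.285) and MRPL49 (-0.10 ± 0.20, adjusted p = 0.771) did not pass in this comparison. With scaling by library size only, MRPL4 (-0.84) and MRPS6 (-1.03) were called lower, MRPS6 also with the length trend removed (-0.86). MRPS14 was called higher without control 1 (0.79) and in a fit of the 2 compared groups (0.77).

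The remaining rises ran from log2 0.57 to 1.03. MRPS16 was at 1038, 1124 and 1305 CPM with microplastics and taurine and 828, 751 and 619 CPM with microplastics, without overlap (log2 0.66 ± 0.19, adjusted p = 0.0396), and its call was lost without taurine 2 (0.68) or 3 (0.56), microplastics 1 (0.74), 2 (0.66) or 3 (0.53), control 2 (0.66), when scaled by library size alone (0.22), with the length trend removed (0.33), with the replicate block (0.68) and without control 3 and taurine 3 (0.55). Among large-subunit genes 12 rose and 0 fell by edgeR (median 0.09; 17 had an unadjusted p under 0.05, as did 3826 of all 13190), and among small-subunit genes 8 rose and 1 fell (median 0.22). These medians turned to -0.34 and -0.23 with scaling by library size only. Again most calls lay among the abundant members, with 16 rises and 0 falls in the highest class (median 0.75). Other genes of that range had a median of 0.25, and 25.3% of them rose. By length, 7 of the 26 shortest rose and 1 fell (median 0.36), beside 20.3% and 0.592% of other genes (median 0.35). In the middle class 6 rose (median 0.01), beside 17.5% of other genes (median 0.24). In the longest 7 rose (median 0.09), beside 12.2% (median 0.06), and 0 fell in either class.

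With scaling by library size only, 11 genes rose and 8 fell, against 4.56% and 18.8% of all genes, and the median turned to -0.27, where that of all tested genes was -0.45. With the length trend removed, 12 rose and 5 fell, against 8.59% and 3.17% of all genes, with a median of -0.13, beside 0.00057 for all genes. Over libraries left out in turn 11 to 22 genes rose, with 11 without microplastics 1, 12 without microplastics 2 and 13 without microplastics 3. In these 3 fits 5.45%, 5.91% and 5.74% of all genes rose. The share of all genes was largest without taurine 1, at 11.8%, where 22 of the 78 rose. Under each of the alternatives listed for the first comparison, 11 of the 20 rises were called, as was the fall of MRPS26. The 11 are MRPL33, MRPL22, MRPS31, MRPL39, MRPS22, MRPL42, MRPL50, MRPL47, MRPL32, MRPS35 and MRPL13. The matching count over all tested genes was not computed here either.

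Oocytes with microplastics and taurine were also set against control. By edgeR 0 of the 78 genes were called, where 0.00758% of all tested genes were called higher and 0% lower; 8 of the 78 had an unadjusted p under 0.05, as did 750 of all 13190, and DESeq2 called 0. Taurine libraries lay above all control libraries for 3 genes and below them for 3, against 4.58% and 4.56% of all tested genes. The median was -0.06, and 0.07 without control 1. The 3 genes with the smallest p were all higher with taurine: MRPL4 (log2 0.66 ± 0.19), MRPL2 (0.66 ± 0.19) and MRPL49 (0.58 ± 0.20), each with an adjusted p of 0.855. MRPL2, which helps form the catalytic centre of the large subunit, was at 29.7, 32.8 and 28.2 CPM with microplastics and taurine, 29.1, 23.9 and 24.5 CPM with microplastics and 19.7, 16.5 and 21.3 CPM in control, and both exposed groups lay above control without overlap. A p that missed the threshold does not show that the levels were alike.

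Without control 3 and taurine 3, 786 of 13190 genes were called in this comparison, 4.75% higher and 1.21% lower, among them 3 of the 78. The pair was chosen because each of its libraries resembled the other group, so leaving it out widens the difference between these groups by construction, and these counts support no difference. The log2 fold change was then 0.90 for MRPL43, 1.34 for MRPS18A and 0.96 for MRPL34, where with all libraries it was 0.38, 0.61 and 0.58. In the libraries of MRPS18A, 10.2, 10.1 and 4.76 CPM with microplastics and taurine, 7.88, 7.39 and 10.4 CPM with microplastics and 4.08, 3.96 and 8.43 CPM in control, taurine 3 stands low in its group and control 3 stands high in its own.

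Some genes with particular roles were not called with microplastics by edgeR with TMM factors and all libraries. MRPS12, which forms part of the decoding centre, was at 1.71, 3.28 and 4.59 CPM with microplastics and taurine, 1.85, 2.32 and 2.41 CPM with microplastics and 5.88, 5.49 and 3.10 CPM in control, and the difference between microplastics and control missed the threshold (log2 -1.13 ± 0.39, adjusted p = 0.0508). It was called lower with the Wald test of DESeq2 (-1.17), with DESeq2 size factors (-1.17), in a fit of the 2 compared groups (-1.13), without control 3 (-1.36), taurine 1 or taurine 3 (-1.13 each), and without control 3 and taurine 3 (-1.36). MRPL58, a peptidyl-tRNA hydrolase that rescues stalled ribosomes, was at 17.8, 29.8 and 39.1 CPM with microplastics and taurine, 43.3, 36.6 and 29.3 CPM with microplastics and 26.0, 28.0 and 18.1 CPM in control, with the microplastics libraries above all control libraries but no call in any comparison. It was called higher with microplastics with scaling by library size only (1.10) and with the length trend removed (0.94), and lower with taurine against microplastics with library size only (-0.79). The 3 paralogs of bacterial S18 had different values: MRPS18A at log2 0.64 ± 0.37, MRPS18B at -0.27 ± 0.31 and MRPS18C at -0.26 ± 0.17 with microplastics, none of them called. MRPS18A was called higher without control 3 (1.11) and without control 3 and taurine 3 (1.11).

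MRPS18C was at 86.2, 111 and 92.5 CPM with microplastics and taurine, 67.0, 64.5 and 63.8 CPM with microplastics and 87.1, 77.9 and 69.0 CPM in control. Its taurine libraries lay above all microplastics libraries (log2 0.57 ± 0.17, adjusted p = 0.0395), and the call was lost without taurine 2 (0.46) or 3 (0.60), any microplastics library (0.57, 0.55 and 0.53), control 2 (0.57), when scaled by library size alone (0.14), with the length trend removed (0.070), with the replicate block (0.56), with no filter (0.56) and in a fit of the 2 compared groups (0.55). MRPS30, whose product lies in the large subunit, was at 15.3, 29.2 and 30.4 CPM with microplastics and taurine, 19.9, 21.5 and 22.9 CPM with microplastics and 32.9, 21.4 and 23.2 CPM in control, and its groups overlapped. MRPL55 is the 1 gene with more than 1 transcript in the table, 3 in all; control 1 held 24.0 CPM of it, against 4.85 to 9.92 CPM in the other libraries.

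Genes that work with the mitoribosome were called at shares near those of all tested genes. With microplastics, 1 of 5 further mitoribosomal proteins fell and 0 rose by edgeR, 2 of 14 translation factors fell and 2 rose, and 5 of 25 assembly factors fell and 3 rose, where 14.7% of all tested genes fell and 9.67% rose. MTFMT, which formylates the initiator methionyl-tRNA, was at 159.8, 203 and 219 CPM with microplastics and taurine, 65.4, 69.0 and 68.0 CPM with microplastics and 237, 219.7 and 133 CPM in control. The microplastics libraries lay below all others (log2 -1.54 ± 0.22 against control, 1.52 ± 0.22 with taurine against microplastics, adjusted p = 0.000605 and 0.000923). FASTKD2, an RNA-binding protein needed for the large ribosomal RNA and its subunit, was at 75.1, 76.8 and 86.6 CPM with microplastics and taurine, 23.2, 25.5 and 25.1 CPM with microplastics and 78.9, 81.7 and 89.2 CPM in control. Its groups split in the same way (-1.76 ± 0.16 and 1.69 ± 0.16, adjusted p = 3.12e-05 and 9.33e-05).

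MTERF3, which takes part in mitochondrial transcription and ribosome assembly, was at 808, 1245 and 1720.0 CPM with microplastics and taurine, 514, 622 and 556 CPM with microplastics and 1588, 1650.5 and 958 CPM in control. It fell with microplastics (-1.31 ± 0.27, adjusted p = 0.00532) and was higher with taurine than with microplastics alone (1.16 ± 0.27, adjusted p = 0.0147), the second call being lost without microplastics 1 (1.08) or 3 (1.13). TUFM, elongation factor Tu, was at 8.31, 13.4 and 6.29 CPM with microplastics and taurine, 16.3, 12.6 and 14.1 CPM with microplastics and 10.99, 5.55 and 9.58 CPM in control. It was not called in either direction (0.72 ± 0.32 with microplastics, adjusted p = 0.121), nor were the elongation factor GFM1 (0.17 ± 0.22), the initiation factor MTIF3 (0.34 ± 0.29) and DAP3, a GTP-binding protein of the small subunit (0.21 ± 0.28). With scaling by library size only, TUFM (1.20) and GFM1 (0.66) were called higher. With taurine against microplastics, 1 of 5, 1 of 14 and 3 of 25 genes of these lists rose, and 0, 0 and 1 fell by edgeR, where 10.1% of all tested genes rose and 4.13% fell. The fall was that of MTG2, a GTPase of large-subunit assembly, at 0.143, 0.386 and 0.109 CPM with microplastics and taurine and 0.905, 1.12 and 1.59 CPM with microplastics with 2 taurine libraries at or under the floor of 3 reads (log2 -2.46 ± 0.58, adjusted p = 0.0154), which was lost without taurine 3 (-2.17) or microplastics 3 (-2.23).

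The other 7 of these genes named with microplastics against control were less stable. CHCHD1, a small-subunit protein, had a log2 fold change of -0.74 ± 0.21 (-0.92 to -0.49 with 1 library left out), and with taurine against microplastics of 0.68 ± 0.21 (0.61 to 0.76), the 1 rise of its list. GFM2, which takes part in splitting ribosomes after a protein is finished, was at -0.67 ± 0.22 (-0.75 to -0.52), and MALSU1, which binds the large subunit during assembly, at -1.36 ± 0.44 (-1.64 to -0.53). Calls in the higher direction were LETM1, an inner-membrane protein, at 0.93 ± 0.31 (0.78 to 1.29), and the release factor MTRF1L at 0.70 ± 0.22 (0.49 to 0.83). Higher too were PTCD1, an RNA-binding protein, at 1.37 ± 0.46 (1.13 to 1.52), and DDX28, an RNA helicase of large-subunit assembly, at 1.07 ± 0.32 (0.95 to 1.21). Each of these 7 calls against control was lost without microplastics 1, without microplastics 3 and without control 1, left out singly, and with the replicate block, and the CHCHD1 call with taurine was lost without any 1 microplastics library, taurine 2, taurine 3 or control 2.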

How the data were processed

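RNA of 9 bovine oocyte libraries had been sequenced, and libraries were grouped by their labels. Per the labels' protocols, total RNA was extracted with TRIzol; the sources used here name no aligner, counting program or build. The authors' table holds, per the file headers, estimated counts per transcript without normalization, and FPKM and TPM deposited beside them. A further deposited set of columns, a scaled signal with the authors' group means, was not used here. Estimated counts were summed per gene and rounded, TPM were summed per gene for levels, and FPKM served to derive transcript length as the ratio of counts to FPKM. Gene IDs were matched to symbols in the RefSeq gene table (16995 of 17852 genes, 95.2%). No coordinates or sequences are printed.

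Tests used the quasi-likelihood method of edgeR 4.0.16 in R 4.3.3, robust, with TMM factors, 1 coefficient per group over 9 libraries, filterByExpr (minimum count 10 and total 15) and Benjamini-Hochberg adjustment over 13190 genes, with calls at 0.05. Scripts were tested on simulated data. CPM are TMM-scaled; SE of a log2 fold change is its size over the square root of F. A floor of 3 reads is 0.106 to 0.164 CPM and covers counting error only. How the authors' program split reads between near-identical copies of a gene is not stated in these sources, so counts of genes with such copies are uncertain.

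The genes described, the lists, the tests and their alternatives were chosen with earlier results of these data known. Genes were named by a written rule: in each of the first 2 comparisons, up to 8 called genes per direction with the largest change and no overlap; in the third, the 3 with the smallest p; the 5 highest and 3 lowest in control TPM; MRPS12, MRPS18A, MRPS18B, MRPS18C, MRPS30, MRPL12, MRPL22, MRPL39 and MRPL58; up to 2 called genes per direction of each other list; and TUFM, GFM1, MTIF3 and DAP3. MRPL43, MRPL34, MRPL55 and MRPS36, and the lists of genes called under all alternatives, were named after their values were seen. Alternatives were DESeq2 size factors, library size only, no filter, 5 CPM in 3 libraries, DESeq2 1.42.0, a fit of the compared groups, the replicate block, removal of the length trend (lowess span 0.3), a threshold of 0.1, leaving out each library, and control 3 and taurine 3 left out together. Messenger RNAs of the mitochondrial genome and NOA1 were not analysed here, and RBFA and METTL17 did not pass the filter.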

Additional observations from a re-analysis of the deposited data

How the results depend on the processing

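Counts and medians of the 78 genes changed with scaling, with the length trend and with single libraries; where no cause is given, the cause was not tested. In microplastics minus control, scaling by library size only gave 16 rises, 13 falls and a median of 0.22, and removal of the length trend 12 rises and a median of 0.0016. Without control 3 and taurine 3 there were 8 rises and a median of -0.42. Over single libraries left out, rises numbered 2 to 7 and falls 16 to 26. Of all tested genes, 3.87% to 15.4% then rose and 8.98% to 16.2% fell. Over the same libraries the members' median was -0.42 to -0.073 and the large-subunit minus small-subunit median -0.12 to 0.040. In microplastics and taurine minus microplastics, scaling by library size only gave 11 rises, 8 falls and a median of -0.27. Removal of the length trend gave 12 rises, 5 falls and a median of -0.13, and DESeq2 and an adjusted p under 0.1 gave 2 falls each. Rises were 11 to 22 with 1 library left out, where 5.45% to 11.8% of all tested genes rose. In microplastics and taurine minus control, the median was -0.16 to 0.066 with 1 library left out, where rises and falls were 0 throughout, and without control 3 and taurine 3 it was -0.18 with 3 rises. The medians of each subunit turned sign with scaling by library size only, to 0.19 (large) and 0.23 (small) for microplastics minus control and to -0.34 and -0.23 for microplastics and taurine minus microplastics. With the length trend removed they were -0.05 and 0.0038 in the first comparison and -0.16 and -0.03 in the second.

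No called value of a named gene changed sign. With microplastics against control, values with scaling by library size only and with the length trend removed were 0.19 and 0.044 for MRPL24, 0.25 and 0.030 for MRPL28, 0.33 and 0.083 for MRPL12, 0.24 and 0.0038 for MRPS18B, and 0.23 and 0.40 for MRPS18C. MRPS30 was 0.22 with library size only and GFM1 -0.048 with the length trend removed. With 1 library left out, MRPL28 ran over -0.63 to 0.084 (0.02 without control 3 and taurine 3), MRPL12 over -0.51 to 0.83 and MRPS18B over -0.53 to 0.24.

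With taurine against microplastics, library size only and length removal gave -0.29 and -0.16 for MRPL20 and -0.35 and -0.12 for MRPS18B, and library size only gave -0.23 for MRPS30 and -0.31 for GFM1. With 1 library left out the ranges were -0.0031 to 0.27 (MRPL20), -0.41 to 0.28 (MRPL28), -0.20 to 0.25 (MRPS18A), -0.035 to 0.24 (MRPS18B), -0.40 to 0.045 (MTIF3) and -0.16 to 0.20 (DAP3). Without control 3 and taurine 3, MRPL20 was -0.015, MRPS18A 0.24, MRPS18B -0.0014, MTIF3 0.034 and DAP3 0.19.

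Libraries of different groups share replicate numbers, but same-numbered libraries did not all deviate together (correlations -0.44 to 0.26), so the numbers name libraries only. With the replicate block, 3 of the 78 rose and 19 fell with microplastics, 15 rose and 1 fell with taurine against microplastics, and MRPS18A turned to 0.014. The filter of 5 CPM removed MRPL12, MRPL24, MRPL28, MRPS12, MTG2 and PTCD1, which then have no value. A planned count of motifs in promoters was not run, as no promoter sequences were used here. With 3 libraries a group, low levels, as for MRPL12, and levels near the floor, as for MTG2 with microplastics and taurine, limit what could be detected.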
